A study of Drosophila melanogaster with 6 samples.

Results

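Cuticle protein genes and Osiris genes were followed in the eye-antennal discs of Drosophila melanogaster larvae. They were chosen by symbol: Cpr, Lcp, Ccp84, Acp65, Edg and Osi genes, with the spelling TwdL for the Tweedle genes, and at least 10 counted read pairs over the 6 libraries. Of 17609 gene symbols in the table, 123 matched and 58 of these reached 10 counts: 32 Cpr, 13 Lcp, 2 Ccp84, 2 Edg and 9 Osi genes. Of the 65 others, 43 had no count in any library and 22 had fewer than 10. Just inside the limit were Osi23 with 10 counts and Cpr72Ec, Cpr100A and Ccp84Ab with 11 each, and just outside it were Osi1, Osi12 and Cpr5C with 9 each.

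The insect cuticle is a layered extracellular matrix of chitin fibres and proteins that epidermal cells secrete at their apical surface and replace at each moult under control of the steroid hormone ecdysone. Most Cpr, Lcp, Ccp84, Acp65 and Edg genes encode secreted proteins with the Rebers-Riddiford chitin-binding domain, and the genes lie in clusters of similar copies that are used at different stages and in different parts of the body. Osiris genes encode an insect-specific family of small proteins of cellular membranes and are known to be switched on in epithelia that are about to secrete cuticle; most of them lie side by side on chromosome arm 3R. The eye-antennal disc is the larval epithelium from which the compound eye, the antenna and the head cuticle of the adult form, and its cells lay down pupal and adult cuticle only after the larval stage.

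RNA came from discs of larvae of the third instar raised at 25°C for the experiment. The dTet group, with 3 biological replicates, was ey-Gal4>UAS-dTet, which expresses a transgene for the fly TET protein, and the 3 controls were ey-Gal4>W1118. ey-Gal4 is driven by sequences of the eye-specification gene ey and is shared by both groups; it is known to act in the eye field and not in every cell of the disc, whereas RNA was taken from whole discs. In such bulk samples, fewer cells of a type and less RNA per cell cannot be told apart.

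Each library held 16395675 to 20242356 counts, of which the 58 genes took only 0.0166 to 0.0370%. Levels are given as CPM, the counts scaled to library size, mean ± SD over n = 3 libraries per group. Tet itself was at 349.6 ± 34.4 CPM in controls and 412.5 ± 46.3 CPM in the libraries labelled dTet, which did not pass the test (log2 fold change 0.24, 95% interval -0.04 to 0.52, edgeR adjusted p = 0.244), and the counts do not part the endogenous gene from the transgene. Eye disc markers were detected in every group but were lower in dTet for 8 of 8 (summed level 1584 to 1813 CPM in controls, 401.1 to 416.4 CPM in dTet), as were 5 of 5 neuron markers, whose sums were 175.6 to 208.6 and 29.1 to 32.0 CPM; elav is in both lists. Of 6 antennal disc markers 4 were higher and 2 lower (798.0 to 811.9 and 1097 to 1154 CPM). Of other tissues, 2 of 4 markers of the head capsule (88.6 to 112.8 and 149.0 to 164.1 CPM), 1 of 4 of trachea (20.2 to 24.7 and 31.6 to 38.6 CPM) and 2 of 7 of muscle were higher. Lower were 3 of 5 markers of glia and 1 of 5 of salivary glands (24.9 to 65.99 and 1.26 to 17.7 CPM), and none of 6 for fat body (600.6 to 2581 and 412.3 to 1474 CPM), 6 for hemocytes and 2 for gut was called. The part of these shifts in the results below was not tested.

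One control library stood apart for these genes. In control replicate 2, 12 of the 58 genes (20.7%) had 10 or more counts in that library and were more than 5 times as high as in each other control. This was so for 0.732% of all 11476 genes with 10 or more counts over the 6 libraries. The same held for 1 of the 58 in control replicate 1 (0.558% of all genes) and for 0 in control replicate 3 (0.636%). In dTet replicates 1, 2 and 3 it held for 0, 1 and 4 of them, against 1.26, 1.49 and 1.36% of all genes. This 5-fold criterion was chosen after the values were seen. The summed markers of head capsule and trachea in control replicate 2 lay between those of the other controls, its sums for fat body and salivary gland were the lowest of the controls, and those for muscle, glia and gut the highest.

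The 12 genes were Lcp1, Lcp4, Lcp9, Lcp65Ab1, Lcp65Ab2, Cpr11B, Cpr47Ec, Cpr49Ag, Cpr56F, Cpr65Av, Cpr65Ay and Edg91. Lcp4, a larval cuticle protein gene, had 99, 1816 and 81 counts in control replicates 1, 2 and 3. Cpr11B had 0, 492 and 8 counts there, and Lcp65Ab1 12, 246 and 10. Together the 12 genes made up 50.3% of the family counts in control replicate 2 and 4.97 to 11.2% in each other library.

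Summed over all 58 genes, control replicate 2 reached 399.2 CPM, while control replicates 1 and 3 held 156.4 and 177.9 CPM and dTet replicates 1, 2 and 3 held 199.7, 228.7 and 200.5 CPM. Without the 12 genes the sums were 148.4, 198.5 and 168.2 CPM in controls and 189.8, 204.4 and 178.0 CPM in dTet. Neither sum separated the groups. Results that rest on control replicate 2 are therefore given below also without it.

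**Figure D1:**
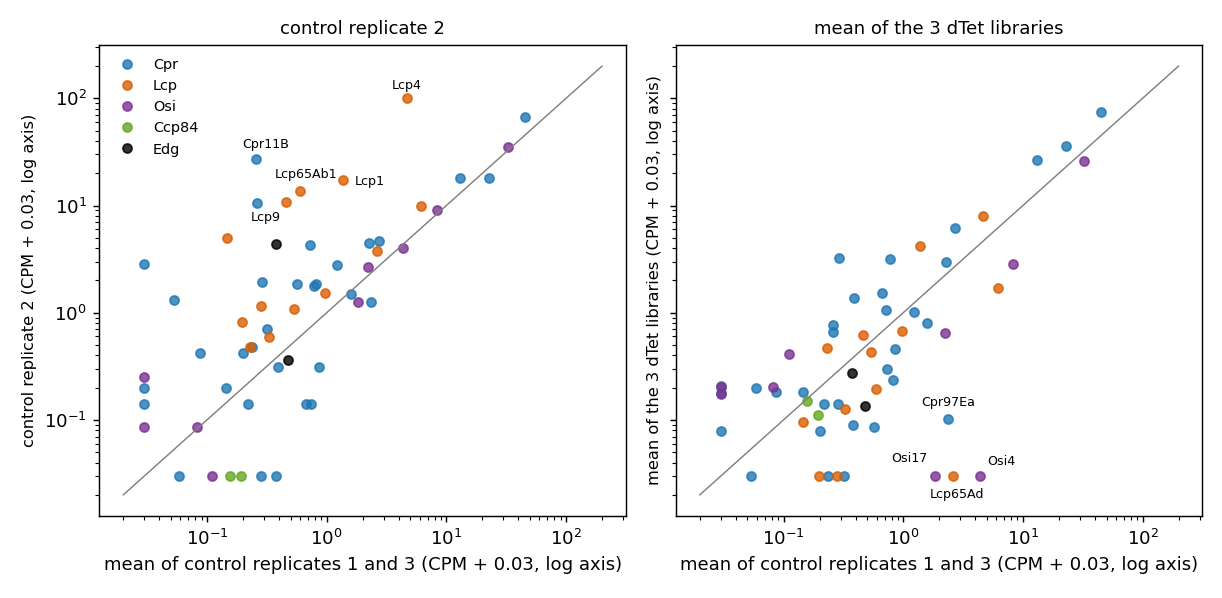
Levels of the 58 genes in control replicate 2 (left) and in the mean of the 3 dTet libraries (right), each against the mean of control replicates 1 and 3, in CPM on log axes with a small constant added so that zeros can be drawn; each point is a gene coloured by family and the line marks equal levels. Lcp4, Cpr11B, Lcp65Ab1, Lcp9 and Lcp1 lie far above the line on the left, and Osi4, Osi17, Lcp65Ad and Cpr97Ea lie far below it on the right.

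Most of the genes were weakly expressed. The median total over the 6 libraries was 84.5 counts, against 2275 for all genes with 10 or more counts, and 32 of the 58 had fewer than 100. Cpr51A, Osi24, Cpr49Ac, Lcp4 and Cpr66D held 72.9% of the 25258 counts. Per kilobase of the counted exons, Cpr51A was the highest, at 80.8 ± 25.5 in controls and 115.6 ± 12.1 in dTet (RPKM, CPM per kilobase), which ranked 780 of 11476 genes by the mean of all 6 libraries. The next was Lcp4 at 46.5 ± 70.4 and 10.1 ± 4.34 RPKM, where the control SD comes from control replicate 2. They were followed in order by Cpr66D (18.6 RPKM over all libraries), Cpr49Ac (13.5), Osi24 (11.3), Lcp65Af (8.77), Cpr78E (6.37), Lcp65Ab1 (6.19), Cpr11B (6.13) and Lcp9 (5.72), and neighbours among the last 5 lay within the spread of the libraries. Without control replicate 2, Cpr51A remained first, followed by Cpr66D (19.0 RPKM), Cpr49Ac (14.5), Osi24 (10.9), Lcp4 (8.40), Lcp65Af (6.70) and Cpr78E (5.75). In that order Lcp9, Lcp65Ab1 and Cpr11B ranked only 16, 24 and 26 of 58.

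**Figure D2:**
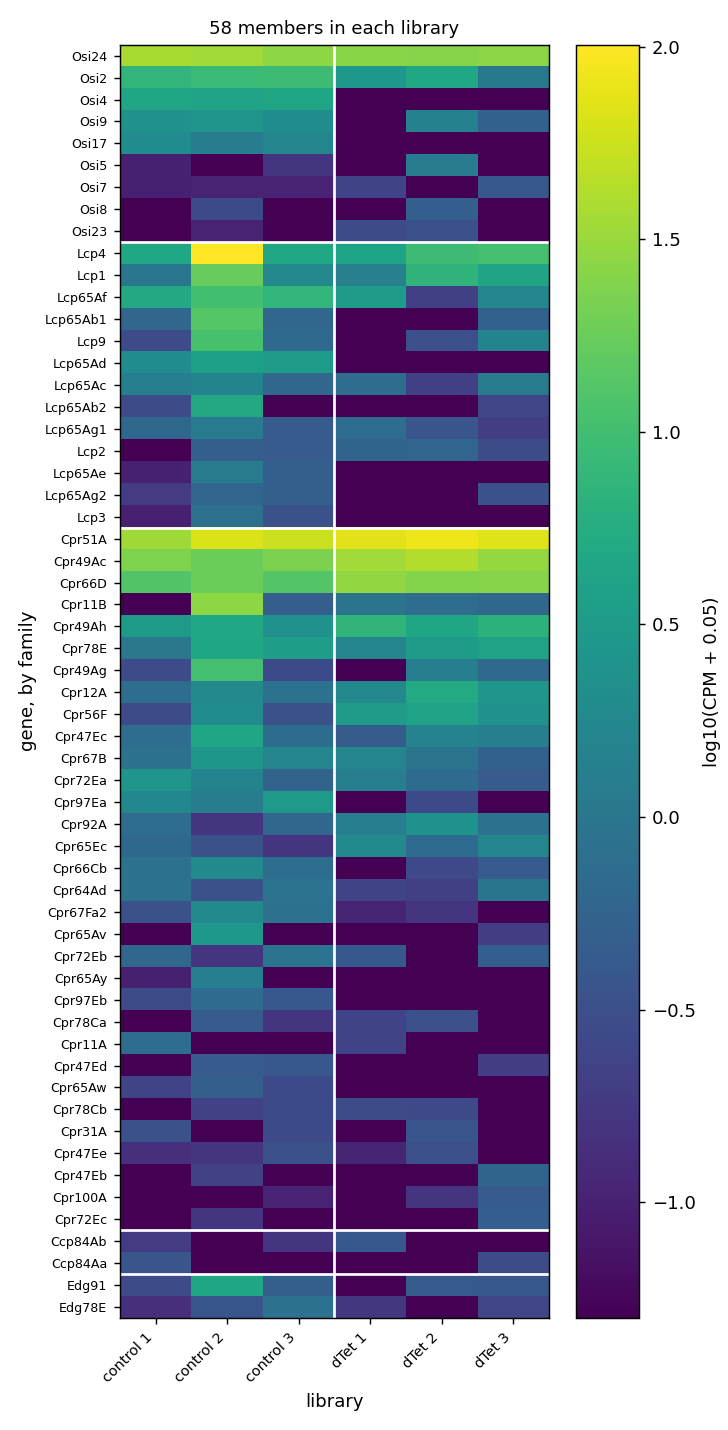
Level of each of the 58 genes (rows, grouped by family) in each library (columns, controls left of the vertical line), as log10 of CPM with a small constant added; yellow is high and dark purple is no count. Osi4, Osi17 and Lcp65Ad are detected in all 3 controls and in no dTet library, and the column of control replicate 2 is brightest for many Lcp and Cpr rows.

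Of the 58 genes, 30 passed the filter on low counts and were tested for a difference between dTet and control. In edgeR's quasi-likelihood test 4 of them were lower in dTet (13.3%, where 7.64% of all 9417 tested genes were lower) and 2 were higher (6.67%, against 3.77%; either direction, 11.4% of all genes). The lower genes were Osi4, Lcp65Ad, Osi17 and Cpr97Ea, and the higher ones Cpr66D and Cpr49Ac. Because some genes passed the filter only through the control libraries, these shares carry no weight for the families. Without control replicate 1, where 32 of the 58 genes were tested, 10 were called lower (18.8% of all genes). The higher calls numbered 0 without control replicate 3 (1.4% of all genes) or dTet replicate 1 (2.02%), and 1 without dTet replicate 2 (1.58%) or dTet replicate 3 (1.35%). With no filter on low counts 7 were lower (7.28% of all genes), and in DESeq2 8 (9.65%).

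Over all 58 genes, tested or not, all 3 dTet libraries lay below all 3 controls for 15 (25.9%, against 16.9% of all genes with 10 or more counts) and above them for 7 (12.1%, against 12.9%). Without control replicate 2, which was left out after the data were seen, the numbers were 16 (20.1% of all genes) and 9 (15.2%). For 8 genes (13.8%, against 2.97%) no dTet library had a count. All 8 reached 10 counts through the controls alone, and the 58 genes are weaker than most. This share and the 25.9% therefore carry no weight for the families. None of the 58 lacked counts in the controls, and the share of all genes for this was not determined. The mean was lower in dTet for 40 of the 58, but for 32 without control replicate 2. The share of all genes with a lower dTet mean was not determined, so no general fall is read from these numbers.

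**Figure D3:**
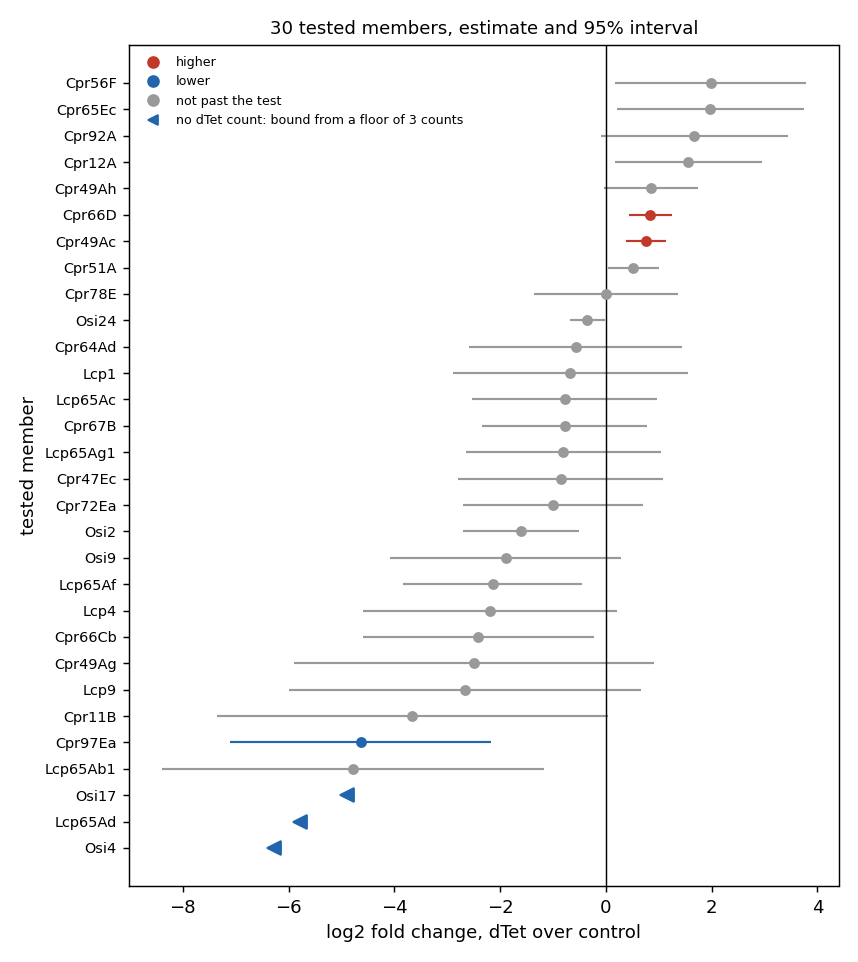
Log2 fold change of dTet over control for the 30 tested genes, with 95% intervals from edgeR; red marks genes that were higher, blue those that were lower and grey those that did not pass, and arrowheads mark bounds for genes with no dTet count. The estimates run from Cpr56F (1.98) to Lcp65Ab1 (-4.79), with Osi17, Lcp65Ad and Osi4 shown only as bounds.

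Osi4 and Osi17 fell below detection in dTet discs, and the other Osiris genes with sizeable counts stood lower there without passing the test. Of 25 Osiris genes in the table, 22 lie within 167.9 kb on 3R (dm6, 6173549 to 6341424), and 10 of those 22, from Osi10a to Osi20, had no count at all. Of the 9 Osiris genes with 10 or more counts, 8 lie in this cluster. All 3 dTet libraries were below all 3 controls for 5 of the 9 (16.9% of all genes): Osi24, Osi2, Osi4, Osi9 and Osi17. This was also so without control replicate 2 (20.1% of all genes). Osi4 and Osi17 reached 10 counts through the controls alone. Summed CPM of the 9 genes was 53.4, 52.2 and 45.2 in controls and 29.3, 33.3 and 29.0 in dTet, so the groups did not overlap. That sum holds Osi4 and Osi17, and 4 of the 9 genes had a higher mean in dTet. Nothing is read from these numbers for the Osiris family.

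Osi4 (FBgn0037412, 3R, 6218318 to 6221781, minus strand) had 92, 71 and 76 counts in the controls and 0, 0 and 0 in dTet. Its level was 4.20 ± 0.208 CPM in controls, and with the dTet group set to its floor of 3 counts (0.0541 CPM) it was at least 77.6-fold lower (edgeR adjusted p = 0.000834). Every control library was well above 0 and no dTet library had a read pair. Osi17 (FBgn0037427, 3R, 6311772 to 6327308, plus strand) had 43, 22 and 28 counts in controls and 0 in each dTet library. From 1.61 ± 0.390 CPM it was at least 29.8-fold lower (edgeR adjusted p = 0.00595). The calls of Osi4 and Osi17 held in all 13 alternative fits, with adjusted p up to 0.0087 and 0.0377.

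Osi2 and Osi9 stood lower without passing the test. Osi2 had 158, 162 and 160 counts in controls and 47, 84 and 21 in dTet, or 8.51 ± 0.988 and 2.81 ± 1.78 CPM. Its log2 fold change was -1.60 with an SE of 0.48 (edgeR adjusted p = 0.0651). The groups did not overlap, and the dTet libraries varied more than the controls. Osi2 passed in DESeq2 (adjusted p = 0.00632), in limma-voom (0.0285), in edgeR with no filter on low counts (0.0236), and without control replicate 1 (0.0327) or dTet replicate 2 (0.0329). Osi9 had 51, 47 and 35 counts in controls and 0, 25 and 10 in dTet, a log2 fold change of -1.90 (SE 0.97, edgeR adjusted p = 0.230).

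Osi24, the most abundant Osiris gene, had 799, 628 and 489 counts in controls and 436, 466 and 556 in dTet. After scaling it was at 33.4 ± 4.89 and 26.2 ± 0.870 CPM, with a log2 fold change of -0.35 (95% interval -0.68 to -0.02) that did not pass (edgeR adjusted p = 0.158). Its 3 dTet values lay just below the lowest control, 27.2 CPM in dTet replicate 3 against 27.9 CPM in control replicate 3. The order of these libraries rests on the scaling factors. The remaining 4 Osiris genes were close to the detection limit and were not tested. Osi5 had 1, 0 and 2 counts in controls and 0, 21 and 0 in dTet, so its dTet counts came from dTet replicate 2 alone. Osi7 had 1 count in each control and 3, 0 and 7 in dTet, and Osi8 had 4 counts in one control and 8 in one dTet library. Osi23, which lies outside the cluster and is known to be needed for the pores of olfactory bristle cuticle, had 0, 1 and 0 counts in controls and 4, 5 and 0 in dTet.

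**Figure D4:**
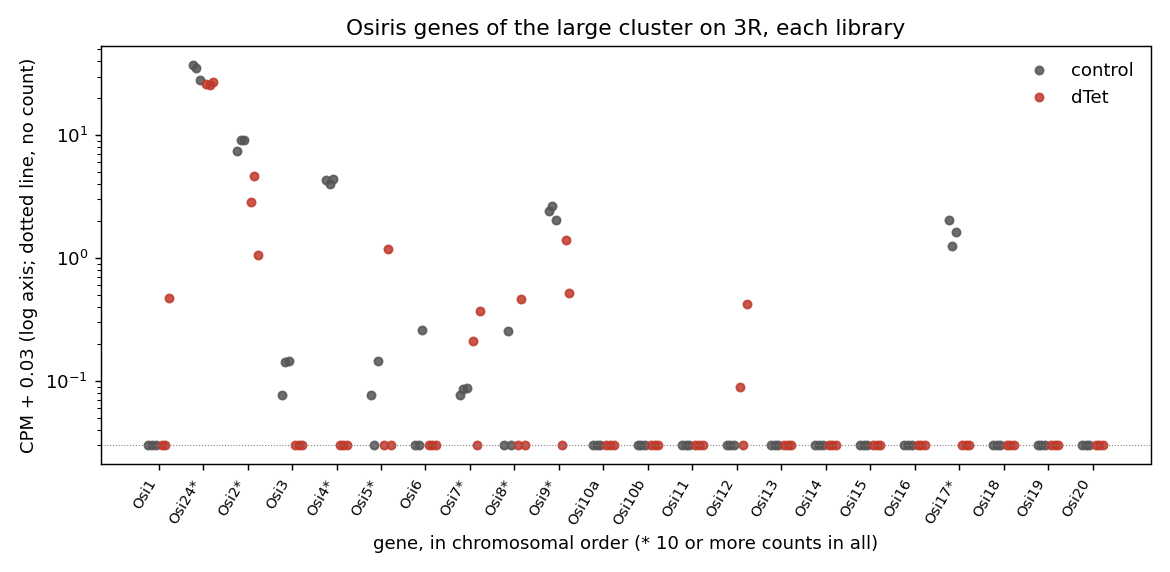
Level of each of the 22 Osiris genes of the 3R cluster in each library, as CPM on a log axis with a small constant added, in the order of the genes along the chromosome; grey points are controls, red points dTet libraries and the dotted line marks no count. Osi4 and Osi17 are detected in the controls and at the dotted line in dTet, and the genes from Osi10a on other than Osi12 and Osi17 have no count in any library.

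In the cuticle gene cluster at 65A, Lcp65Ad fell in dTet discs and no other gene passed the test. This cluster on 3L (6130386 to 6161589) holds 19 matching genes, among them the Lcp65A and Cpr65A genes and the adult cuticle gene Acp65Aa, which had no count in any library. Of the 11 genes of the cluster with 10 or more counts, 5 passed the filter and 1 of these, Lcp65Ad, was lower. The mean was lower in dTet for 11 of 11, and for 10 of 11 without control replicate 2. Most of the 11 reached 10 counts only through the controls, so these directions carry no weight for the cluster. For 5 of the 11 the dTet libraries were wholly below the controls, with and without control replicate 2 (16.9 and 20.1% of all genes). No dTet count was found for 4 of them (2.97% of all genes), which is open to the same limit.

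Lcp65Ad (FBgn0020641, 3L, 6143395 to 6144101, plus strand) had 41, 67 and 57 counts in controls and 0, 0 and 0 in dTet. At 2.97 ± 0.944 CPM in controls it was at least 54.9-fold lower in dTet (edgeR adjusted p = 0.00260), and the call held in all 13 alternative fits (adjusted p up to 0.0205). Its neighbours Lcp65Ae, Cpr65Aw and Cpr65Ay also had no dTet count, against 29, 16 and 24 in the controls together. However, 20 of the 29 counts of Lcp65Ae and 23 of the 24 counts of Cpr65Ay were in control replicate 2. These 3 genes did not pass the filter on low counts. DESeq2 called Lcp65Ae lower (adjusted p = 0.0414), but with no dTet count its fitted log2 fold change of -5.76 has no firm size.

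Lcp65Af had 105, 178 and 130 counts in controls and 54, 3 and 34 in dTet, a log2 fold change of -2.14 (SE 0.75, edgeR adjusted p = 0.101). All dTet libraries were below all controls, with dTet replicate 2 far below the other dTet libraries. The gene passed in DESeq2 (adjusted p = 0.00755), with no filter on low counts (0.0325) and without control replicate 1 (0.0399). Lcp65Ab1 had 0, 0 and 10 counts in dTet. Its log2 fold change of -4.79 (edgeR adjusted p = 0.0888) was -1.71 without control replicate 2. Without dTet replicate 3 it was -9.52, which has no firm size because no dTet count was left. The gene passed with no filter on low counts (adjusted p = 0.0179) and without control replicate 1 (0.0166). Lcp65Ab1 and Lcp65Ab2, and likewise Lcp65Ag1 and Lcp65Ag2, are near-identical copies, and the counting program by default drops read pairs that could come from either copy, so their levels are uncertain.

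None of the larval cuticle genes outside 65A passed the test. The cluster on 2R (8430115 to 8438495) holds Lcp1 to Lcp4, which encode major larval cuticle proteins. Lcp4 had 69, 169 and 218 counts in dTet against the 99, 1816 and 81 given above for controls. Its log2 fold change of -2.19 (SE 1.06, edgeR adjusted p = 0.210) turned to 0.79 (adjusted p = 0.374) without control replicate 2, and passed only without control replicate 1 (-2.73, adjusted p = 0.0329). DESeq2 gave no adjusted p for Lcp4.

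Lcp1 had 20, 313 and 31 counts in controls and 22, 129 and 87 in dTet (log2 fold change -0.67, adjusted p = 0.687), with control replicate 2 again the highest. Without control replicate 2 the estimate turned to 1.63 (adjusted p = 0.281). Lcp3 had 1, 14 and 5 counts in controls and none in dTet, so its groups did not overlap, though it did not pass the filter, and Lcp2 had 0, 8 and 7 against 9, 10 and 5. Lcp9, which lies elsewhere on 2R, had 5, 195 and 11 counts in controls and 0, 5 and 31 in dTet (log2 fold change -2.66, adjusted p = 0.269, but 0.48 without control replicate 2). Summed over the 13 Lcp genes the level was 15.5, 167.3 and 20.8 CPM in controls and 10.6, 17.8 and 20.5 CPM in dTet, so only control replicate 2 stood clear of the rest.

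Of the 32 Cpr genes, Cpr66D and Cpr49Ac rose and Cpr97Ea fell in dTet discs. Summed Cpr levels were 86.6, 175.1 and 110.6 CPM in controls and 159.3, 177.3 and 150.2 CPM in dTet, overlapping only through control replicate 2. All dTet libraries were above all controls for 7 of the 32 (12.9% of all genes): Cpr51A, Cpr49Ac, Cpr66D, Cpr12A, Cpr56F, Cpr92A and Cpr65Ec. They were below all controls for 5 (16.9% of all genes): Cpr97Ea, Cpr97Eb, Cpr67Fa2, Cpr66Cb and Cpr65Aw. Nothing is read from these numbers for the family.

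Cpr66D (FBgn0052029, 3L, 8640439 to 8643584, plus strand) had 271, 325 and 233 counts in controls and 490, 446 and 520 in dTet. It rose from 14.7 ± 2.99 to 26.4 ± 2.60 CPM, 1.79-fold, which on the log2 scale is 0.84 with an SE of 0.18 (edgeR adjusted p = 0.0175). The lowest dTet library exceeded the highest control. The adjusted p was 0.0909 when control replicate 3 was left out, 0.0825 when dTet replicate 1 was and 0.067 when dTet replicate 3 was, so the call ended in these fits.

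Cpr49Ac (FBgn0033725, 2R, 12386666 to 12390057, plus strand) had 491, 326 and 396 counts in controls and 592, 770 and 629 in dTet. The rise from 21.2 ± 2.65 to 36.1 ± 5.69 CPM was 1.70-fold, or 0.76 on the log2 scale with an SE of 0.17 (edgeR adjusted p = 0.0180). Here too the groups did not overlap. This call was lost when control replicate 2 (adjusted p = 0.0626) or 3 (0.0589) was left out, and when dTet replicate 1 (0.0584) or 2 (0.0756) was.

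Cpr51A, with 742, 1210 and 975 counts in controls and 1210, 1540 and 1416 in dTet, had a log2 fold change of 0.52 (95% interval 0.03 to 1.00) that did not pass (edgeR adjusted p = 0.152). Its dTet libraries were above every control after scaling. Cpr56F had 5, 34 and 5 counts in controls and 53, 73 and 49 in dTet, and its log2 fold change of 1.98 (edgeR adjusted p = 0.141) became 3.58 and passed without control replicate 2 (adjusted p = 0.0216). Cpr12A, Cpr92A and Cpr65Ec had estimates of 1.56, 1.67 and 1.98 with adjusted p of 0.136, 0.196 and 0.137. Cpr78E, with 21, 79 and 61 counts in controls and 26, 60 and 82 in dTet, had an estimate near 0 with a 95% interval of -1.37 to 1.37, so a change of over 2-fold either way was not excluded by its interval.

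Cpr97Ea (FBgn0039480, 3R, 27083130 to 27087778, minus strand) had 36, 22 and 52 counts in controls and 0, 4 and 0 in dTet. It fell from 1.96 ± 0.904 to 0.0728 ± 0.126 CPM, a log2 fold change of -4.63 with an SE of 1.09 (edgeR adjusted p = 0.0255). All of its dTet counts came from dTet replicate 2. Without that library the fitted log2 fold change was -8.21, which has no firm size because no dTet count was left. Leaving out control replicate 2 or 3 gave adjusted p of 0.0597 and 0.13, and leaving out dTet replicate 1 or 3 gave 0.0826 and 0.0884, none of them past the test. The gene next to it on the same strand, Cpr97Eb, had 5, 12 and 6 counts in controls and none in dTet, and was not tested. Its control mean was 7.68 times the floor of 3 counts set for dTet.

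Cpr11B had 15, 13 and 12 counts in dTet, beside 0, 492 and 8 in controls. Its log2 fold change of -3.66 (edgeR adjusted p = 0.178) was 1.68 without control replicate 2, and 0.36 by limma-voom. It passed only without control replicate 1 (-4.26, adjusted p = 0.0148), and DESeq2 gave no adjusted p for it. Cpr67Fa2 had 6, 33 and 14 counts in controls and 1, 2 and 0 in dTet, so the controls were 17.2 times as high (95% interval of the count ratio, 5.59 to 86.2). Of its 53 control counts, 33 were in control replicate 2. Control replicates 1 and 3 alone had a mean of 0.955 RPKM, against 0.0997 RPKM in dTet. Cpr67Fa2 did not pass the filter of the reported fit, but was called lower in DESeq2 (log2 fold change -4.14, adjusted p = 0.0298) and without control replicate 1 (-4.44, 0.0215). Cpr49Ag and Cpr47Ec, at -2.50 and -0.86 without passing, turned to 1.42 and 0.57 without control replicate 2. Cpr72Ec, which encodes a protein of the corneal lens of the adult eye, had 2 counts in one control and 9 in one dTet library.

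**Figure D5:**
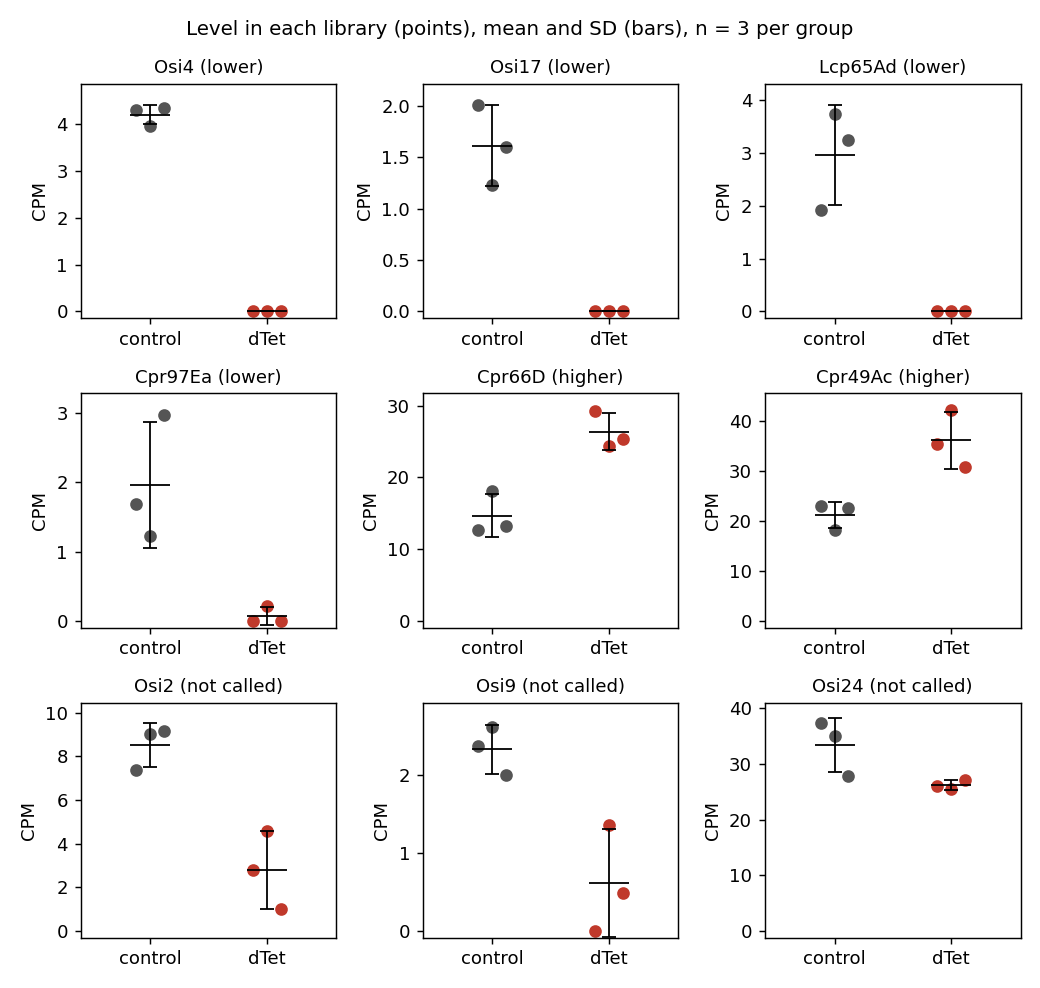
CPM of the 6 genes that passed the test and of Osi2, Osi9 and Osi24 in each library (points), with the mean and SD (bars) of n = 3 libraries per group on a linear axis from 0. In every panel the dTet points lie wholly below or wholly above the control points; Osi4, Osi17 and Lcp65Ad are at 0 in all 3 dTet libraries.

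The Ccp84 genes were hardly detected, and the Edg genes had low counts, most of those of Edg91 in control replicate 2. Of the Ccp84 cluster on 3R, Ccp84Aa had 12 counts and Ccp84Ab 11 over all libraries, and 3 of its 7 genes had none. Edg78E and Edg91 encode pupal cuticle proteins named for their dependence on ecdysone. Edg78E had 2, 6 and 14 counts in controls and 2, 0 and 4 in dTet, and Edg91 had 5, 78 and 8 against 0, 7 and 7. None of these 4 genes was tested, and their groups overlapped.

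The Tweedle genes encode a separate family of insect cuticle proteins that shape the body. They are spelled Twdl in the table and so fell outside the symbol pattern. Of 26 such genes, 11 had a count and 4 reached 10. TwdlE had 51, 60 and 92 counts in controls and 77, 129 and 141 in dTet (log2 fold change 0.76, edgeR adjusted p = 0.233). TwdlU had 18, 8 and 10 counts in controls and 0, 2 and 0 in dTet and was not tested, while TwdlT did not differ past the test (0.08, adjusted p = 0.934).

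Other genes of cuticle formation were followed in 8 lists with 102 tested genes. In all 27 were called (26.5%, against 11.4% of all tested genes), 19 higher and 8 lower in dTet; these lists were chosen with earlier results known, and nothing is read from the share. Leaving out control replicate 2 or 3 or dTet replicate 2 or 3 each ended 17 of the 27 calls, and leaving out dTet replicate 1 ended 13. The 7 called whichever library was left out were Idgf4, Eip93F, Hr4, ImpE1, bab2, sv and SoxN. For comparison, the median over the whole tested table was -0.02 on the log2 scale.

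Of 12 tested genes of chitin synthesis, deacetylation and organisation, 3 were higher and 1 lower (median log2 fold change -0.05). Gfat2 and Gfat1, which make the amino sugar precursor of chitin, had log2 fold changes of 0.56 and 0.38 (edgeR adjusted p = 0.00921 and 0.0376), and the deacetylase gene Cda4 0.43 (0.0496). kkv, the chitin synthase of the epidermis, fell from 397.2 ± 16.8 to 308.2 ± 5.48 CPM, a log2 change of -0.37 (edgeR adjusted p = 0.0421). The calls of Gfat1, Cda4 and kkv ended without any library other than control replicate 1, and that of Gfat2 without dTet replicate 3 (adjusted p = 0.0564).

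Of 13 tested chitinases and imaginal disc growth factors, 2 were higher and 1 lower (median -0.18). Idgf4, a secreted chitinase-like growth factor, rose from 91.4 ± 9.12 to 176.3 ± 15.8 CPM, a log2 change of 0.95 with an SE of 0.12 (edgeR adjusted p = 0.000891). The chitinase gene Cht10 had a log2 fold change of 0.57 (adjusted p = 0.0457) and Cht2 of -0.50 (0.0185), and both calls held only without control replicate 1 among the fits that left out a library. Of 8 other chitin-binding and cuticle genes, Vajk4 alone was called, lower at -2.41 (adjusted p = 0.0192; median of the list -0.52); its call was lost when dTet replicate 1 (0.0686) or 2 (0.0695) was left out.

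Among genes of the apical matrix and of trichomes, 15 were tested, of which 1 was higher and 1 lower (median 0.33). dyl, which encodes a zona pellucida protein that shapes bristles and trichomes, had 91, 59 and 70 counts in controls and 4, 6 and 0 in dTet. It fell from 3.84 ± 0.497 to 0.189 ± 0.170 CPM, a log2 change of -4.33 with an SE of 0.84 (edgeR adjusted p = 0.0101). The call ended without control replicate 3 (adjusted p = 0.053). pio, another zona pellucida protein gene, stood at 0.50 (adjusted p = 0.0217), a call lost when any 1 of control replicates 2 and 3 and dTet replicates 2 and 3 was left out (adjusted p up to 0.119).

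Of 17 tested genes of cuticle tanning and melanin, 4 were higher and 0 lower (median 0.41): yellow-e, b, yellow-b and yellow-e2. yellow-e, of the yellow family of pigmentation genes, rose from 1.83 ± 0.474 to 6.01 ± 0.873 CPM (1.71 on the log2 scale, edgeR adjusted p = 0.0200). b, whose enzyme makes the beta-alanine used in tanning, rose from 5.07 ± 1.10 to 11.6 ± 1.77 CPM (1.19, adjusted p = 0.0206). All 4 calls ended without control replicate 2, among other libraries, with adjusted p from 0.0591 to 0.0625 in that fit.

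Of 22 tested genes of the ecdysone response and developmental timing, 4 were higher and 2 lower (median 0.19). ImpE1, an ecdysone-induced gene, rose from 201.0 ± 14.8 to 405.3 ± 56.5 CPM (1.01 on the log2 scale, edgeR adjusted p = 0.00105). The nuclear receptor gene Hr4 rose by 0.96 on the log2 scale (adjusted p = 0.00349). Eip93F, a transcription factor of the adult stage, fell from 5.54 ± 0.214 to 0.871 ± 0.127 CPM (-2.66, SE 0.41, adjusted p = 0.00282). Blimp-1, a timing factor of the prepupa, had a log2 fold change of 0.96 (adjusted p = 0.0276), and its call was lost in the same 4 fits as that of pio (adjusted p up to 0.111).

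Of 14 tested transcription factors of epidermis and cuticle, 5 were higher and 2 lower (median 0.30). SoxN, a Sox factor of epidermal differentiation, fell from 22.2 ± 4.05 to 4.69 ± 0.759 CPM, a log2 change of -2.25 with an SE of 0.22 (edgeR adjusted p = 0.000239). sv, the Pax2 gene of cone cells and bristles, fell from 31.3 ± 8.93 to 7.74 ± 1.55 CPM (-2.02, adjusted p = 0.000727). bab2, of distal antenna and leg segments, rose from 65.0 ± 10.97 to 132.9 ± 6.91 CPM (1.03, adjusted p = 0.00122), and sob had a log2 fold change of 0.43 (0.0191), a call that held only without control replicate 1 among those fits. Of the corneal lens genes, CG5597 alone was tested (0.46, adjusted p = 0.562) and Crys had no count.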

How the data were processed

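Total RNA of eye-antennal discs was sequenced in 3 biological replicates per genotype with a stranded library kit, per the labels' protocols. The submitters' processing notes name FastQC 0.12.1, HISAT2 2.2.0 and the genome dm6. The deposited table holds raw counts of read pairs for each gene symbol, made with featureCounts 2.0.6 over exons of FlyBase 6.45 at strand setting 2, per the file headers. This program leaves out multi-mapping pairs by default. The exon length deposited beside the counts served for RPKM. Counts sum to 16395675 to 20242356 per library, and floors and exact intervals of count ratios reflect counting error alone, while intervals of log2 fold changes come from the edgeR fit over replicates.

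The whole table was fitted with edgeR 4.0.16 in R 4.3.3 (filterByExpr by group, TMM scaling, quasi-likelihood test, Benjamini-Hochberg adjustment over 9417 genes, threshold 0.05). The F statistic and the log2 estimate gave the standard error. The fit was checked on simulated data. CPM are counts over the scaled library size. A group with no count was set to a floor of 3 counts over its libraries, and with 1 to 3 counts the ratio has an exact 95% interval. A bound from the floor divides the mean of the other group by it and leaves out the error of that mean. Coordinates are those of the count table (dm6), and all 58 genes have the same ones in the Ensembl annotation. No exon overlapped another gene's on the same strand.

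Alternatives were DESeq2 size factors, upper quartile scaling, no filter, 1 CPM in 3 libraries, DESeq2 1.42.0, limma-voom (limma 3.58.1), the replicate number as a block, each library left out and a threshold of 0.01. Named were all genes that passed the test, the Osiris genes, the 10 highest per length, those next to the 10-count limit and up to 4 called genes per list; others were named to show control replicate 2, clusters or groups that do not overlap, after their values were seen. The genes and lists were chosen with earlier results of these data known.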

Additional observations from a re-analysis of the deposited data

How the results depend on the processing

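Genes higher in dTet, 2 in the reported fit, numbered 0 to 2 when a library was left out and 0 at an adjusted p of 0.01. Genes lower in dTet, 4 in the reported fit, numbered 7 with no filter on low counts, 8 in DESeq2 and 3 to 10 when a library was left out, where 10 was without control replicate 1. DESeq2 gave an adjusted p for 49 of the 58 genes, not among them Lcp4, Lcp9, Lcp65Ab1 and Cpr11B. The fit with no filter tested all 58. Of the list genes, 19 higher and 8 lower, the higher numbered 9 with the replicate block, 5 at an adjusted p of 0.01 and 5 to 27 when a library was left out, and the lower 3 at 0.01 and 4 to 16 when a library was left out. The replicate numbers share only a number: deviations of same-numbered libraries correlated at 0.031, 0.021 and -0.1, and the replicate block left 902 calls against 1074 over all genes; the call of Cpr97Ea ended there (adjusted p = 0.0549).

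Among the 16 genes followed under the alternatives, the log2 fold change changed sign for 4, none of them past the test in the reported fit: Lcp4 (0.79), Cpr11B (1.68) and Lcp9 (0.48) without control replicate 2, Cpr11B by limma-voom (0.36), and Cpr78E, at 0.00 in the reported fit, with DESeq2 size factors (-0.0027), upper quartile scaling (-0.016), no filter (-0.022), DESeq2 (-0.0050) and with 1 library left out (-0.43 to 0.40). With 1 library left out, the values ran from -2.73 to 0.79 for Lcp4, -4.26 to 1.68 for Cpr11B and -4.74 to 0.48 for Lcp9. Over all 30 tested genes, 6 turned without control replicate 2: Lcp4, Cpr11B, Lcp9, Lcp1 (1.63), Cpr49Ag (1.42) and Cpr47Ec (0.57). The cause was not tested. Family sums under unscaled library totals moved by less than 1 SD. Depth limits these genes: 28 of the 58, with 10 to 105 counts over the 6 libraries, did not pass the filter of the reported fit.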
